A study of Homo sapiens with 6 samples.

Results

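Fanconi anemia and homologous recombination genes were examined in A2780 cells, a line of ovarian origin that the study lists as endometrioid, after exposure to TH588, an inhibitor of the nucleotide-cleaning enzyme MTH1. The group was made up of 45 of the 58336 genes in the count table, chosen by name as rows whose Ensembl identifier belongs to a Fanconi, homologous recombination, theta-mediated joining or crosslink nuclease gene. The RNA came from 6 cultures of this single line. Those of the control group (A, B and C) received the DMSO vehicle, and those of the treated group (A, B and C) received 6 µM TH588, both for 48 h before polyadenylated RNA was collected. No other genetic change or agent separated the groups, and a single dose and a single time were measured. All 45 genes were found once each and were annotated as protein coding, and all 45 passed the filter on low counts.

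Cells repair DNA strands that are linked to each other through the Fanconi pathway. A core complex attaches ubiquitin to the FANCD2-FANCI pair, nucleases then cut the link out, and the broken chromosome is restored by homologous recombination, which copies the sister chromatid. Recombination starts with trimming of the DNA end and continues when BRCA1, PALB2 and BRCA2 help prepare the end for strand exchange, while theta-mediated joining, driven by DNA polymerase theta, seals ends that have been trimmed but not copied. Inherited faults in several of these genes raise the risk of ovarian cancer, and tumors that lack recombination respond well to platinum compounds and PARP inhibitors. Many of the genes are transcribed mainly in S and G2 phase, when a sister chromatid is at hand.

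Lower RNA after TH588 was the common pattern. Of the 45 genes, 36 (80.0%) were lower at an adjusted p under 0.05 in edgeR's quasi-likelihood test, 1 was higher and 8 did not pass the threshold. Among all 15844 genes tested, 25.3% were lower and 24.2% were higher by the same rule. The median log2 fold change of the 45 genes was -0.925, which is 52.7% of the DMSO level, and that of all genes tested was 0.019. A fall of more than 2-fold was called for 21 of the 45 genes, against 4.76% of all genes. Summed over the 45 genes, normalized counts (counts per 1e6 of the TMM-scaled library, CPM) were 3300 to 3440 in the DMSO libraries and 1510 to 1632 CPM in the TH588 libraries. All 3 TH588 libraries lay below all 3 DMSO libraries for 37 of the 45 genes, against 29.0% of all genes tested. RNA from whole cultures was measured, so fewer cells that express a gene and less of its RNA per cell cannot be told apart.

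**Figure D1:**
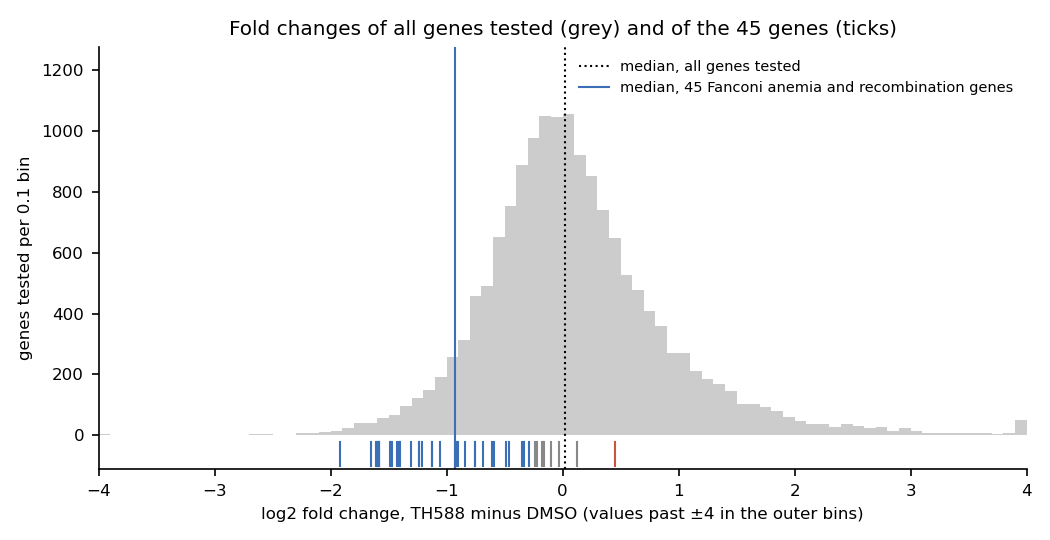
The histogram shows log2 fold changes (TH588 minus DMSO, x axis) of all 15844 genes tested, as genes per bin (y axis), with ticks under it for the 45 Fanconi anemia and recombination genes, in blue where lower, red where higher and grey where the threshold was not passed. The median of the 45 genes (solid line) was -0.925 and that of all genes (dotted line) was 0.019, and the ticks run from -1.92 to 0.45.

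Libraries ranged from 28537837 counts in TH588 replicate A to 99074175 in TH588 replicate B. The small nucleolar RNA *SNORD3A* took 21.94% of the counts of TH588 replicate A and 7.68% to 12.95% of those of the other 5 libraries. Without TH588 replicate A, 36 of the 45 genes were again lower and their median log2 fold change was -0.875. Most of the 8 epithelial and ovarian markers were at or near 0: *PAX8* had 0 counts in all 3 DMSO libraries and *CDH1* at most 2 counts in any library. Only *EPCAM* and *KRT18* could be tested, both were higher after TH588, and the 8 summed to 3.82 to 4.60 CPM with DMSO and 10.9 to 12.2 CPM with TH588. The 5 leukocyte markers summed to 0.767 to 1.36 CPM with DMSO and 0.947 to 1.27 CPM with TH588, and the 6 of fibroblasts and endothelium to 14.2 to 15.9 and 16.4 to 17.9 CPM. Of the 2 leukocyte markers and 4 fibroblast and endothelial markers that could be tested, *CD14* (log2 fold change 2.30, edgeR adjusted p = 0.00393) and *COL1A2* (1.37, edgeR adjusted p = 0.00012) were higher after TH588, and none was lower. *CD14* was scarce, with 3, 6 and 8 counts in the DMSO libraries and 11, 35 and 23 in the TH588 libraries. It thus passed the filter on low counts through the TH588 libraries alone, which favored a rise. Proliferation markers moved with the repair genes: 21 of 21, among them *MKI67*, *PCNA* and the MCM helicase genes, were lower (median log2 fold change -1.317), and their summed level was 5835 to 6170 CPM with DMSO and 2159 to 2570 CPM with TH588. Their part in the result was not tested.

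The start sites of the genes were searched for letters that known cell cycle regulators bind. RefSeq promoters (GRCh38.p14), which span 250 bases before and 50 bases after a start, were matched by symbol for 39 of the 45 genes. No promoter was matched for *FANCI*, *RMI2*, *RAD54B*, *WRN*, *RECQL4* and *NBN*. The 4 spellings of the E2F site that were searched on both strands were TTTCCCGC, TTTCGCGC, TTTGCCGC and TTTGGCGC. They occurred in 7 of the 39 genes (17.9%), against 3.99% of the 27305 genes in the promoter table, 6.38% of the 11124 of them that were tested for a change and 9.7% of the 3166 that were called lower. All 7 were among the 31 genes with a promoter that were called lower (22.6%), and 0 were among the 8 that were not. Since most of the 39 genes were called lower, the other 8 are few to compare with, and this split was not tested. Of the 39 genes, 3 (7.69%) held the letters in the 250 bases before the start alone, against 3.4% of all genes, 5.41% of those tested and 7.77% of those called lower. A match describes these letters and does not show that a factor binds.

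One stretch around an E2F match is printed for each of the 7 genes, 5′ to 3′ on the strand of the gene, to show where these letters lie, and the match is in capitals. Where the match reads GCGGGAAA, GCGGCAAA or GCGCCAAA, the searched letters lie on the other strand. Positions are counted from the first transcribed base as 1, with -1 as the base before it. The match spans -2 to 6 in *FANCD2* (chr3:10026409-10026466, plus strand), 2 to 9 in *GEN1* (chr2:17753844-17753898, plus strand), 22 to 29 in *XRCC2* (chr7:152676112-152676146, minus strand) and 27 to 34 in *MCM8* (chr20:5950667-5950696, plus strand). It lies before the start in *RMI1* (chr9:83980747-83980806, plus strand, -32 to -25), *FANCC* (chr9:95317722-95317781, minus strand, -46 to -39) and *FANCA* (chr16:89816786-89816845, minus strand, -172 to -165). *FANCC* holds a second match, GCGCGAAA, from base -172, which is not printed.
FANCD2: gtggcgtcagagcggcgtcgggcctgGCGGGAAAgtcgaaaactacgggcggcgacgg
GEN1: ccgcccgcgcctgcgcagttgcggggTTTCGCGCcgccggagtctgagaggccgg
XRCC2: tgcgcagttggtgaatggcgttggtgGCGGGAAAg
MCM8: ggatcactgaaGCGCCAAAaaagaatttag
RMI1: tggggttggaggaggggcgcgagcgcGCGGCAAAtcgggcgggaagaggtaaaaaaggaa
FANCC: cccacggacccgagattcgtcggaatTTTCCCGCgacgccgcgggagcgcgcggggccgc
FANCA: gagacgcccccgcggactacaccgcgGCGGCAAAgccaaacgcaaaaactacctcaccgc

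The CCAAT box, the letters CCAAT on either strand to which NF-Y binds, was present in 19 of the 39 genes (48.7%), against 39.7% of all genes and 42.9% of those tested. The cell cycle homology region, searched as TTTGAA or TTCGAA on either strand, was present in 5 genes (12.8%), against 19.5%, 15.9% and 17.2%. It was held by 4 of the 31 genes called lower (12.9%) and 1 of the 8 that were not (12.5%). The promoters of 3 genes that fell by more than 2-fold are shown with these letters in capitals, over the 250 bases before the start. They are examples only, since *HELQ*, which did not pass the threshold, also holds both kinds of letters. *BLM* (chr15:90717096-90717345, plus strand) holds 3 CCAAT boxes, of which the first 2 read ATTGG. *BRIP1* (chr17:61863529-61863778, minus strand) holds 3 CCAAT boxes, each read as ATTGG, after a TTCAAA, which is TTTGAA on the other strand. *POLQ* (chr3:121545989-121546238, minus strand), the gene with the largest fall, holds a TTCAAA in this stretch and a TTTGAA that begins at base 4 after the start, and neither E2F letters nor a CCAAT box.
BLM: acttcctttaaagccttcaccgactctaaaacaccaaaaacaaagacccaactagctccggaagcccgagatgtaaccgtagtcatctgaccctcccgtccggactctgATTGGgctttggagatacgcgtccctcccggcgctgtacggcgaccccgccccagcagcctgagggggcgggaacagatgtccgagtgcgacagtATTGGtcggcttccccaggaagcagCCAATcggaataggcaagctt
BRIP1: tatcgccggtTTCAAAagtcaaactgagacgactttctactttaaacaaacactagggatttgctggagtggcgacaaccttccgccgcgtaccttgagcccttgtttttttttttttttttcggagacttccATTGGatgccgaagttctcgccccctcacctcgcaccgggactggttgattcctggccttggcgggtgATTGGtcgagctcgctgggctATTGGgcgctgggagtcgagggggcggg
POLQ: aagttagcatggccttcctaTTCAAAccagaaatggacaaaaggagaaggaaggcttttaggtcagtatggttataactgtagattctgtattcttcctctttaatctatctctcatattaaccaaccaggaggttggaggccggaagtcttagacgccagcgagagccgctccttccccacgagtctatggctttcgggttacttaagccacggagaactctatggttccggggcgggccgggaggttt

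**Figure D2:**
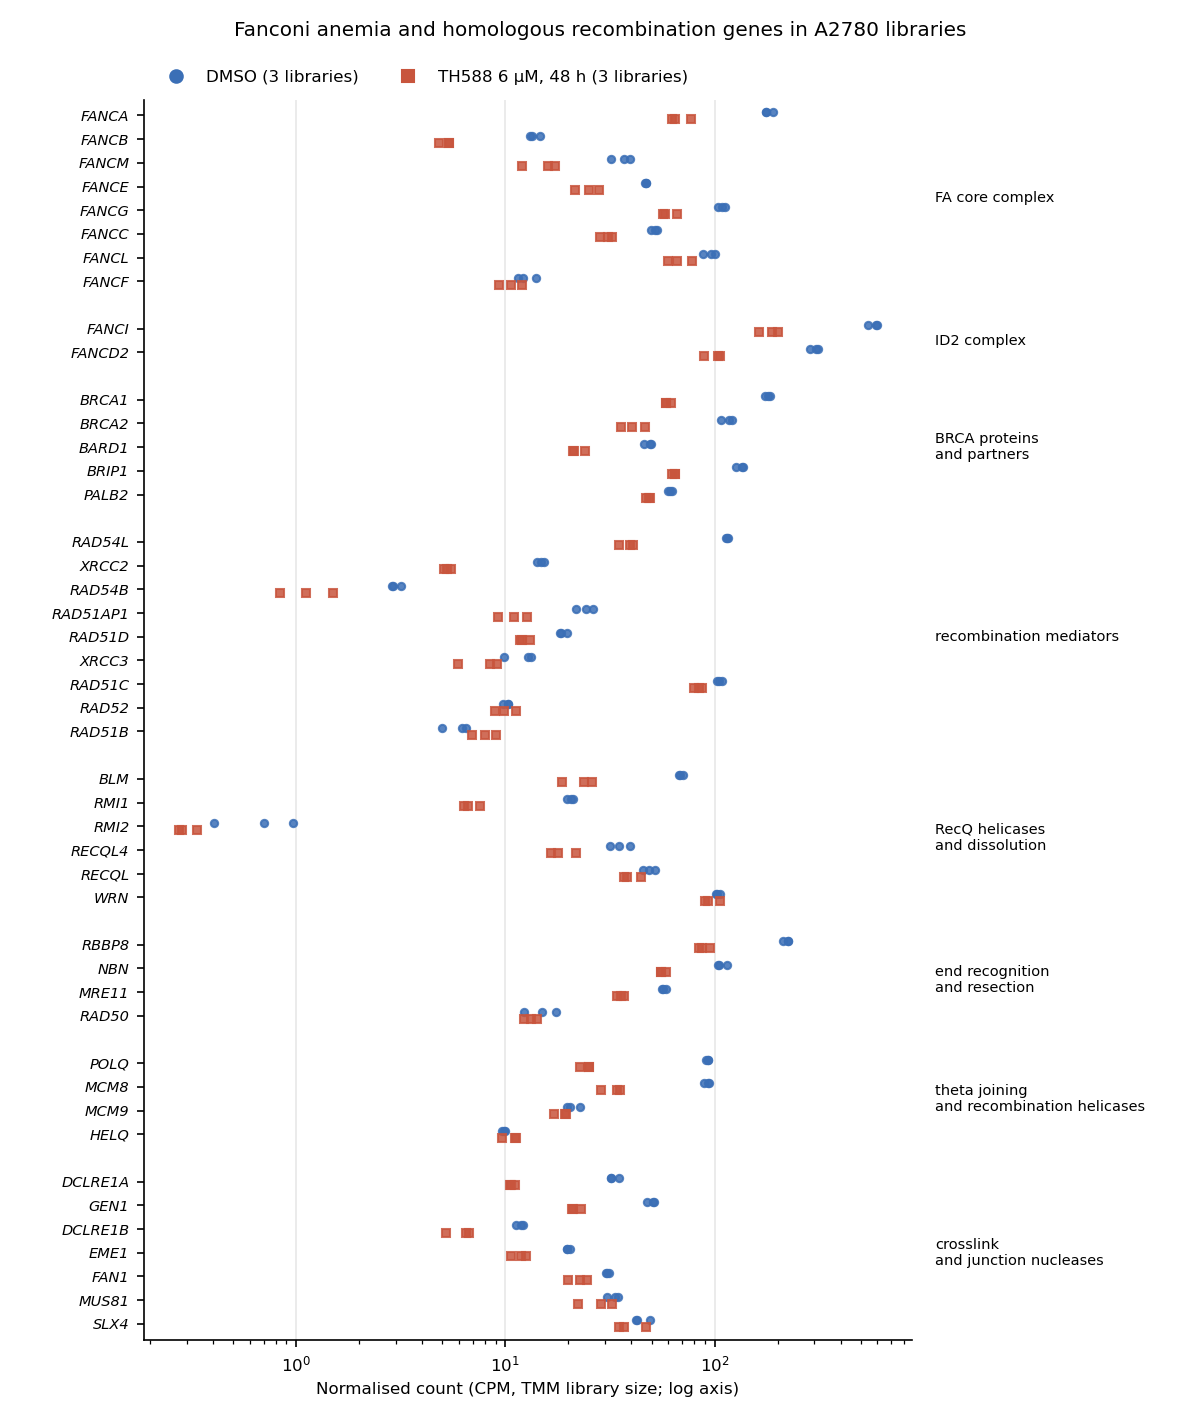
Each row is a gene, grouped by role, and each point is a library, with the normalized count (CPM, TMM library size) on a log axis, circles for the 3 DMSO libraries and squares for the 3 TH588 libraries. The 3 squares lie left of the 3 circles for 37 of the 45 genes, and right of them for *RAD51B* alone.

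The FANCD2-FANCI pair, the substrate of the core complex, had the lowest median log2 fold change of the 8 roles, at -1.621. *FANCI* (ENSG00000140525, chr15:89243949-89317261) stood at 541, 590.4 and 598 CPM in the DMSO libraries (A, B and C, in that order throughout) and at 164, 188 and 200.2 CPM in the TH588 libraries. *FANCD2* (ENSG00000144554, chr3:10026414-10101930) stood at 287, 306 and 312 CPM with DMSO and at 89.1, 104 and 107 CPM with TH588. In both genes every TH588 library lay below every DMSO library. The log2 fold change of *FANCI* was -1.65 (standard error 0.09, edgeR adjusted p = 8.76e-08), from 576 ± 31.1 to 184 ± 18.7 CPM (SD, n = 3 each). That of *FANCD2* was -1.60 (standard error 0.09, edgeR adjusted p = 8.35e-08), from 302 ± 13.0 to 99.8 ± 9.38 CPM (SD, n = 3 each). Per kilobase of gene model, *FANCI* had the highest level of the 45 genes with DMSO, at 74.2 CPM per kilobase.

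Of the 8 genes of the core complex, the ubiquitin ligase that recognizes the crosslink, 7 were lower and *FANCF* did not pass the threshold, and their median log2 fold change was -0.872. *FANCA* (ENSG00000187741, chr16:89737549-89816657), a scaffold subunit, fell most. It stood at 191, 176 and 176 CPM with DMSO and at 62.7, 77.0 and 64.8 CPM with TH588, without overlap. The log2 fold change of *FANCA* was -1.41 (standard error 0.09, edgeR adjusted p = 2.83e-07), and 23.6% of its exon bases lie in exons of *ZNF276* on the other strand. *FANCB*, a partner of the catalytic subunit, and *FANCM*, the translocase that anchors the complex on DNA, also fell by more than 2-fold, with log2 fold changes of -1.40 and -1.24. *FANCE* (-0.90), which contacts FANCD2, *FANCG* (-0.84) and *FANCC* (-0.76) fell by less than 2-fold. *FANCL* (ENSG00000115392), the catalytic subunit, had the highest level per length in the complex, at 39.3 CPM per kilobase with DMSO and 28.1 CPM per kilobase with TH588. Its level was 87.8, 101 and 96.0 CPM with DMSO and 77.6, 59.6 and 66.4 CPM with TH588, a log2 fold change of -0.49 (standard error 0.10, edgeR adjusted p = 0.00166). Exons of 2 other genes, mainly *VRK2* on the other strand, cover 19.7% of the exon bases of *FANCL*. *FANCF*, an adaptor, stood at 13.96, 12.2 and 11.4 CPM with DMSO and at 9.30, 12.0 and 10.7 CPM with TH588. Its groups overlapped, and its log2 fold change was -0.22 (standard error 0.13, edgeR adjusted p = 0.167).

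All 5 genes of the BRCA proteins and their partners were lower (median log2 fold change -1.133). *BRCA1* (ENSG00000012048, chr17:43044295-43170245), a ubiquitin ligase that promotes end trimming, had the highest level per length of the 5 with DMSO, at 19.6 CPM per kilobase. It stood at 175, 179.6 and 185 CPM with DMSO and at 58.4, 62.0 and 58.3 CPM with TH588. The groups lay apart by much more than their spread, with a log2 fold change of -1.59 (standard error 0.08, edgeR adjusted p = 2.82e-08). *BARD1*, the obligate partner of BRCA1, went from 46.2, 49.2 and 49.4 CPM to 24.1, 21.2 and 21.0 CPM, a log2 fold change of -1.13. *BRCA2* (ENSG00000139618, chr13:32315474-32400266), which acts on trimmed single-stranded DNA, went from 108, 118 and 121 CPM to 35.7, 40.2 and 46.6 CPM. The log2 fold change of *BRCA2* was -1.49 (standard error 0.10, edgeR adjusted p = 3.35e-07). *BRIP1*, a helicase that binds BRCA1, fell with a log2 fold change of -1.06. *PALB2*, which bridges BRCA1 and BRCA2, changed least of the 5, from 61.5, 62.5 and 59.6 CPM to 49.0, 46.8 and 48.7 CPM. Its groups did not overlap and its log2 fold change was -0.35 (standard error 0.07, edgeR adjusted p = 0.00204), but it did not pass the threshold with library size as the only scaling (-0.243).

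The 9 recombination mediators moved unevenly, with 7 lower and 1 higher (median log2 fold change -0.613). *RAD54L* (ENSG00000085999, chr1:46247688-46278473), a motor protein that acts in strand pairing, fell most and had the highest level per length of the 9 with DMSO, at 35.7 CPM per kilobase. It went from 115, 113 and 116 CPM with DMSO to 35.0, 40.7 and 39.2 CPM with TH588, a log2 fold change of -1.58 (standard error 0.08, edgeR adjusted p = 5.47e-08). Exons of *LRRC41* on the other strand cover 25.1% of its exon bases. *XRCC2*, a recombination mediator, *RAD54B*, a relative of RAD54L, and *RAD51AP1*, which acts in strand pairing, fell by more than 2-fold as well, with log2 fold changes of -1.47, -1.43 and -1.13. *RAD54B* was scarce, at 2.99 CPM with DMSO on average, and 59.1% of its exon bases are shared with *FSBP* on the same strand.

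The other mediators changed less or in the other direction. *RAD51D* fell with a log2 fold change of -0.61. *RAD51C*, a subunit of mediator complexes, went from 103, 105 and 109 CPM to 84.7, 79.7 and 86.8 CPM, a log2 fold change of -0.33 (standard error 0.08, edgeR adjusted p = 0.00283). *XRCC3*, its partner, went from 13.2, 12.9 and 9.83 CPM to 5.94, 9.08 and 8.45 CPM, a log2 fold change of -0.59 (standard error 0.16, edgeR adjusted p = 0.01). Exons of *KLC1* on the other strand cover 76.7% of the exon bases of *XRCC3*. With library size only, neither *RAD51C* (-0.231) nor *XRCC3* (-0.477) passed the threshold. *RAD51B* (ENSG00000182185, chr14:67819779-68730218), also a mediator, was the only gene of the 45 that was called higher. It stood at 5.001, 6.20 and 6.52 CPM with DMSO and at 6.95, 8.03 and 9.03 CPM with TH588. The highest DMSO library and the lowest TH588 library were close, the log2 fold change was 0.45 (standard error 0.14, edgeR adjusted p = 0.0212), and the call was lost without DMSO replicate A (0.361) or without TH588 replicate C (0.371). *RAD52*, which anneals single strands, stood at 10.3, 9.75 and 10.3 CPM with DMSO and at 11.2, 9.89 and 8.89 CPM with TH588. The DMSO values lay within the range of the TH588 values, and the log2 fold change was -0.03 (standard error 0.12, edgeR adjusted p = 0.872).

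Of the 6 RecQ helicases and dissolution genes, 5 were lower (median log2 fold change -1.075), and the 3 components of the BLM dissolvasome in the group fell by more than 2-fold. *BLM* (ENSG00000197299, chr15:90717327-90816165), the helicase that dissolves recombination intermediates, went from 67.3, 70.3 and 68.0 CPM to 18.8, 23.7 and 25.8 CPM. On the log2 scale *BLM* changed by -1.58 (standard error 0.11, edgeR adjusted p = 3.51e-07). *RMI1*, a subunit of the BLM complex, went from 19.7, 20.7 and 21.2 CPM to 6.65, 6.33 and 7.58 CPM, also a log2 fold change of -1.58. *RMI2*, its partner, was the scarcest of the 45 genes, at 0.706, 0.969 and 0.406 CPM with DMSO and 0.336, 0.285 and 0.276 CPM with TH588, from 9 to 80 counts per library. Its log2 fold change was -1.24 (standard error 0.39, edgeR adjusted p = 0.0208), and the call was lost without DMSO replicate B (-0.92), TH588 replicate B (-1.209) or TH588 replicate C (-1.164). *RECQL4*, which acts in replication, fell with a log2 fold change of -0.92.

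The remaining RecQ helicases gave smaller differences. *RECQL* stood at 45.6, 48.8 and 51.7 CPM with DMSO and at 44.7, 37.1 and 38.1 CPM with TH588, so the groups nearly touched. Its log2 fold change was -0.29 (standard error 0.09, edgeR adjusted p = 0.0215). The call on *RECQL* was lost without DMSO replicate B (-0.291), DMSO replicate C (-0.226), TH588 replicate B (-0.239) or TH588 replicate C (-0.236), and with library size only (-0.191). Exons of *PYROXD1* on the other strand cover 41.5% of its exon bases. *WRN*, the helicase mutated in Werner syndrome, had the highest level per length of the 6, at 18.3 CPM per kilobase with DMSO and 17.1 CPM per kilobase with TH588. It stood at 103, 101 and 106 CPM with DMSO and at 90.0, 92.7 and 106 CPM with TH588. TH588 replicate C thus lay within the DMSO range, and the log2 fold change was -0.10 (standard error 0.08, edgeR adjusted p = 0.331).

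Among the 4 genes of end recognition and resection, 3 were lower and the median log2 fold change was -0.806. *RBBP8* (ENSG00000101773, chr18:22798261-23026488), which encodes CtIP, the cofactor that starts trimming, fell most and had the highest level per length of the 4 with DMSO, at 43.4 CPM per kilobase. It went from 213, 225 and 224 CPM to 87.4, 84.1 and 95.2 CPM, a log2 fold change of -1.31 (standard error 0.08, edgeR adjusted p = 1.53e-07). The 3 subunits of the MRN complex, which senses broken ends, gave different values. *NBN*, the regulatory subunit, fell with a log2 fold change of -0.93. *MRE11*, the nuclease, went from 58.6, 56.8 and 56.0 CPM to 36.8, 34.1 and 35.7 CPM, a log2 fold change of -0.69 (standard error 0.08, edgeR adjusted p = 1.45e-05). *RAD50*, the tether, stood at 12.3, 17.5 and 14.9 CPM with DMSO and at 13.2, 12.3 and 14.2 CPM with TH588. The *RAD50* groups overlapped and its log2 fold change was -0.17 (standard error 0.13, edgeR adjusted p = 0.313). A transcript model on the same strand (ENSG00000283782) and a further gene cover 79.7% of its exon bases, and how reads in shared exons were counted is not given in the sources used here, so its level is uncertain.

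The 4 genes of theta joining and the recombination helicases divided into 2 that were lower and 2 that did not pass the threshold (median log2 fold change -0.828). *POLQ* (ENSG00000051341, chr3:121431427-121546641), which encodes DNA polymerase theta, had the largest fall of the 45 genes. It stood at 91.1, 92.8 and 93.3 CPM with DMSO and at 22.8, 25.2 and 25.2 CPM with TH588. On the log2 scale the change was -1.92 (standard error 0.08, edgeR adjusted p = 1.5e-08), so that 26.4% of the DMSO level remained, from 92.4 ± 1.13 to 24.4 ± 1.39 CPM (SD, n = 3 each). *MCM8*, a helicase that acts with MCM9 in recombination, had the highest level per length of the 4 with DMSO, at 11.9 CPM per kilobase. It went from 88.7, 92.7 and 94.2 CPM to 28.7, 35.3 and 34.3 CPM, a log2 fold change of -1.48 (standard error 0.09, edgeR adjusted p = 1.78e-07). *MCM9* stood at 19.8, 20.5 and 22.8 CPM with DMSO and at 19.3, 19.5 and 17.1 CPM with TH588. Its groups did not overlap, yet its log2 fold change of -0.18 (standard error 0.10, edgeR adjusted p = 0.173) did not pass the threshold. *HELQ*, a helicase linked to crosslink repair, stood at 9.65, 9.97 and 9.90 CPM with DMSO and at 9.60, 11.1 and 11.3 CPM with TH588. The *HELQ* groups overlapped, with a log2 fold change of 0.12 (standard error 0.11, edgeR adjusted p = 0.40).

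Of the 7 genes of crosslink and junction nucleases and their partners, 5 were lower and the median log2 fold change was -0.761. *DCLRE1A* (ENSG00000198924, chr10:113834725-113854383), which encodes SNM1A, a nuclease that digests past a crosslink, had the largest fall and the highest level per length of the 7 with DMSO, at 7.17 CPM per kilobase. It went from 32.0, 31.9 and 35.1 CPM to 10.5, 11.2 and 10.7 CPM, a log2 fold change of -1.61 (standard error 0.09, edgeR adjusted p = 9.95e-08). *GEN1*, which resolves Holliday junctions, fell by more than 2-fold with a log2 fold change of -1.21, and *DCLRE1B*, the Apollo nuclease of telomeres, fell with -0.92. *FAN1*, a nuclease recruited by FANCD2, fell with -0.46, and exons of *MTMR10* on the other strand cover 24.3% of its exon bases. *EME1*, the partner of MUS81, went from 19.7, 19.7 and 20.3 CPM to 10.7, 12.5 and 11.9 CPM, a log2 fold change of -0.76 (standard error 0.10, edgeR adjusted p = 6.13e-05). *MUS81*, the catalytic subunit, stood at 34.7, 33.3 and 30.7 CPM with DMSO and at 22.3, 32.4 and 28.5 CPM with TH588. Only TH588 replicate B reached the DMSO range, and the log2 fold change of *MUS81* was -0.24 (standard error 0.12, edgeR adjusted p = 0.126). *SLX4*, a scaffold for MUS81 and some other nucleases, stood at 49.2, 42.3 and 42.4 CPM with DMSO and at 35.1, 47.2 and 37.1 CPM with TH588. Again only TH588 replicate B reached the DMSO range, and the log2 fold change of *SLX4* was -0.16 (standard error 0.11, edgeR adjusted p = 0.272). Without TH588 replicate B, *MUS81* (-0.363) and *SLX4* (-0.305) were both lower past the threshold.

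**Figure D3:**
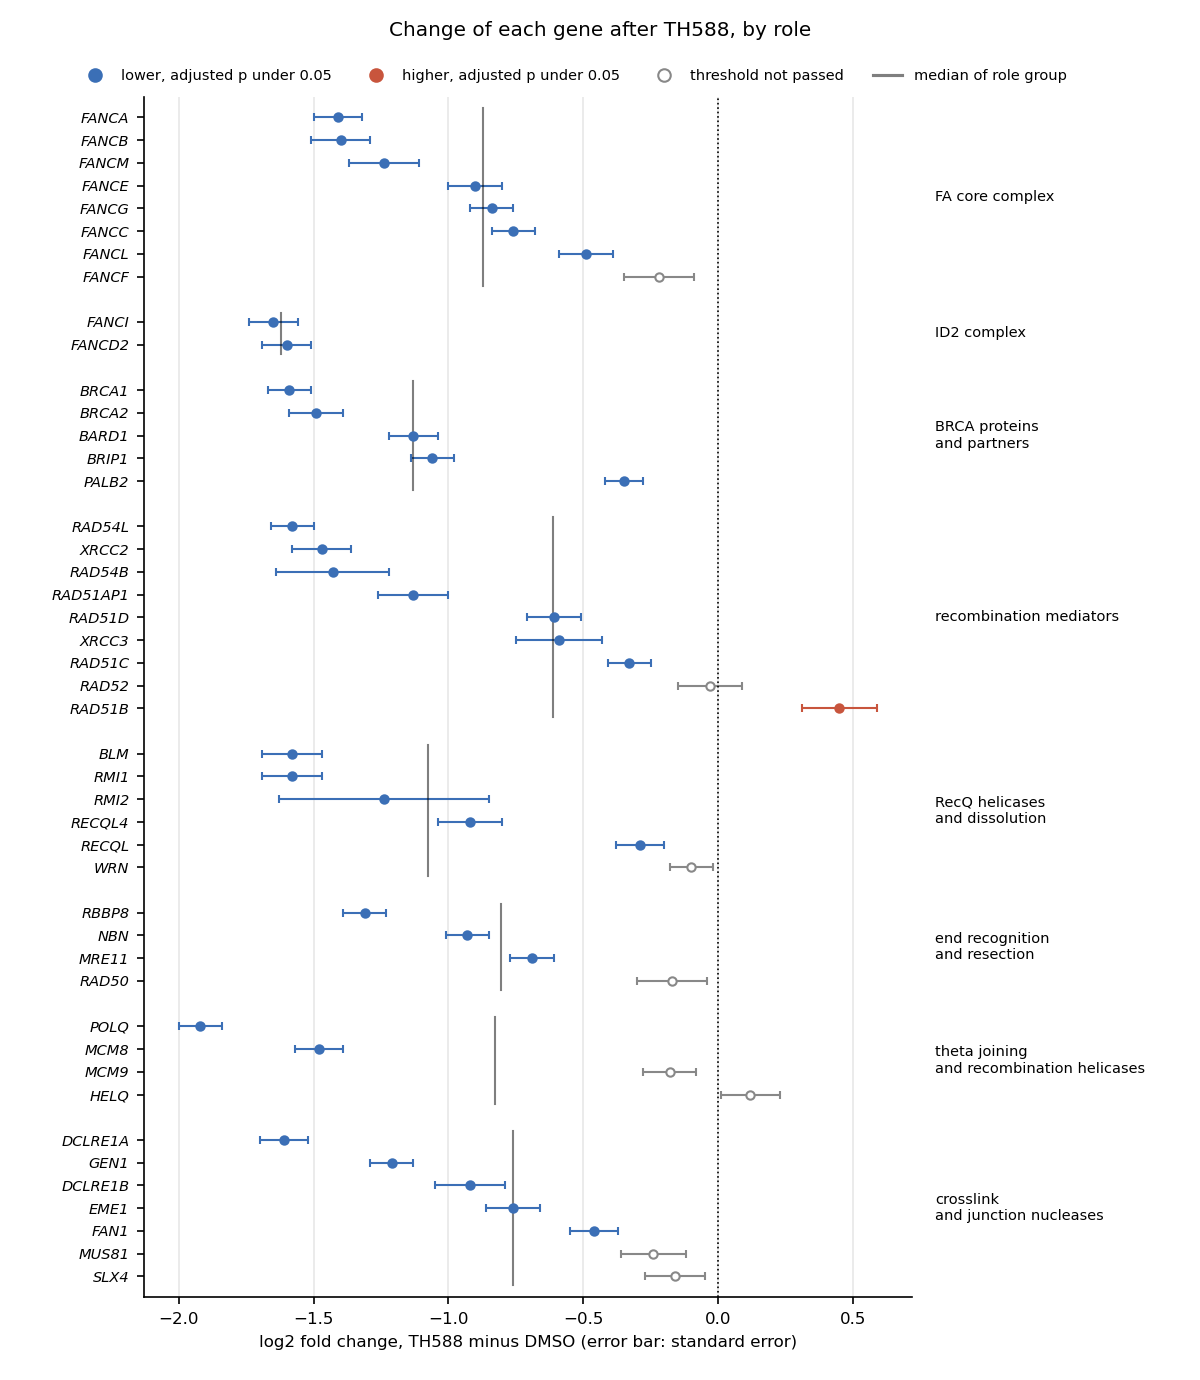
The log2 fold change of each gene (TH588 minus DMSO, x axis, with its standard error) is shown by role, filled where the adjusted p was under 0.05, and the grey line is the median of the role. Medians run from -1.621 for the FANCD2-FANCI pair to -0.613 for the recombination mediators, and every role except that pair and the BRCA proteins holds a gene that did not pass the threshold.

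The 8 genes that did not pass the threshold, *FANCF*, *RAD52*, *WRN*, *RAD50*, *HELQ*, *MCM9*, *SLX4* and *MUS81*, thus came from 6 of the 8 roles, and log2 fold changes of all 45 genes ran from -1.92 to 0.45. Exons of other genes covered more than 20% of the exon bases of 7 of the 45 genes, and the library kit does not keep the strand, so reads from such partners cannot be told apart by strand. Of the other 38 genes, 30 were lower and 1 was higher (median log2 fold change -0.925).

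Because proteins of a complex are needed together, the ratio of 2 partner genes was compared within each library, which does not depend on how libraries are scaled. An exact two-sided permutation test of 3 libraries against 3 cannot give a p below 0.1, so no ratio could pass a threshold of 0.05. The 8 pairs had been listed with earlier results of these data known, and p-values were adjusted over the 8. The log2 ratio of *FANCD2* to *FANCI* was -0.91, -0.95 and -0.94 with DMSO and -0.88, -0.86 and -0.91 with TH588, a mean difference of 0.05. The ranges nearly touched, so the counts of the pair fell almost in proportion. The log2 ratio of *BRCA2* to *PALB2* went from 0.81, 0.91 and 1.02 to -0.46, -0.22 and -0.06, so that the order of the 2 raw counts turned. Per kilobase *PALB2* was above *BRCA2* in both groups, at 12.9 and 9.40 CPM per kilobase with DMSO and 10.2 and 3.33 with TH588. The difference for *BRCA2* to *PALB2* was -1.16 (exact permutation p = 0.1, adjusted 0.133). The log2 ratio of *MCM8* to *MCM9* went from 2.17, 2.18 and 2.05 to 0.57, 0.86 and 1.0, the largest difference of the 8, at -1.32 (exact permutation p = 0.1, adjusted 0.133).

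Smaller shifts were seen in the other pairs. The log2 ratio of *BRCA1* to *BARD1* went from 1.90 ± 0.03 to 1.43 ± 0.14, that of *MRE11* to *RAD50* from 1.95 ± 0.28 to 1.42 ± 0.08, and that of *MUS81* to *EME1* from 0.72 ± 0.11 to 1.23 ± 0.16 (mean ± SD, n = 3 each). These 3 pairs did not overlap between the groups, with differences of -0.46, -0.53 and 0.51. For each of the 6 pairs without overlap the exact permutation p was 0.1, the smallest possible, and 0.133 when adjusted. How often other pairs of genes separate in this way was not measured, so the count of 6 is not particular to partner genes. The ratios of *RMI1* to *RMI2* (difference -0.45) and of *RAD51C* to *XRCC3* (0.29) overlapped between the groups, each with an exact permutation p of 0.4.

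**Figure D4:**
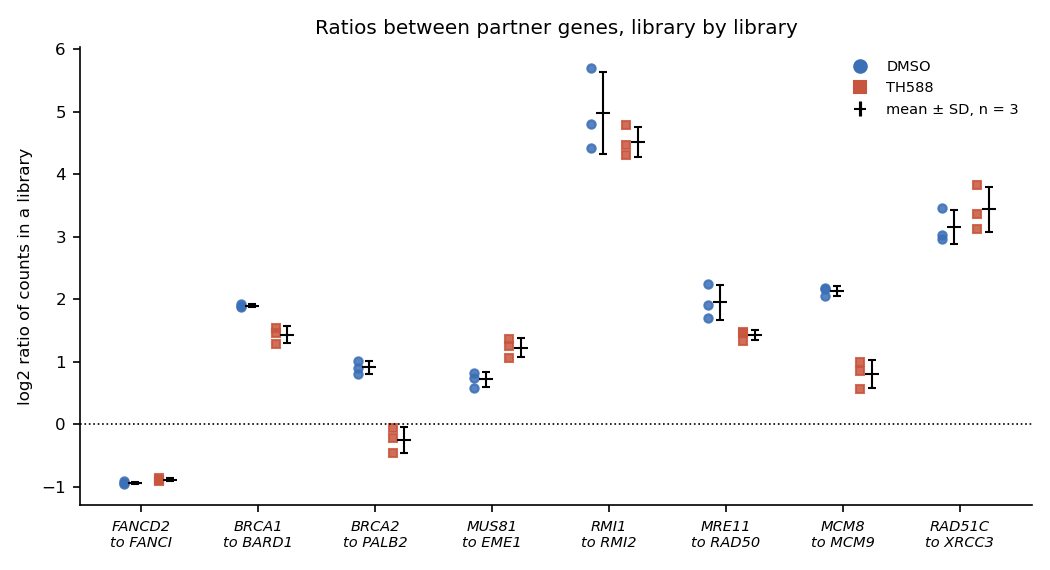
For each of 8 partner pairs (x axis) the log2 ratio of the counts of both genes in a library (y axis) is plotted, with circles for DMSO, squares for TH588 and black bars for the mean ± SD of 3 libraries. *BRCA2* to *PALB2* and *MCM8* to *MCM9* shifted most, by -1.16 and -1.32, while *FANCD2* to *FANCI* stayed within 0.05 on average.

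Measured per kilobase, levels with DMSO ran from 0.257 CPM per kilobase for *RMI2* to 74.2 for *FANCI*, followed from the top by *RBBP8* (43.4), *FANCL* (39.3), *FANCD2* (36.0) and *RAD54L* (35.7). With TH588 the highest levels were those of *FANCL* (28.1 CPM per kilobase), *FANCI* (23.7), *RBBP8* (17.5), *WRN* (17.1) and *FANCG* (16.7). *RAD54B* and *RAD51B* were near the bottom with DMSO, at 0.563 and 0.79 CPM per kilobase. These orders are descriptions, and neighbors in them were not tested against each other.

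A further 44 genes of the same pathways, listed from general knowledge, moved in both directions. Of 43 that could be tested, 20 were lower and 10 were higher (median log2 fold change -0.403), against 25.3% lower and 24.2% higher among all genes. The largest falls were those of *EXO1*, which carries out long-range trimming, at -2.13, of *FIGNL1*, an ATPase of recombination, at -1.65, and of *USP1*, which removes ubiquitin from FANCD2, at -1.30. The largest rises were those of *SWI5* (0.99) and *SWSAP1* (0.95), both recombination cofactors, and of *ERCC1* (0.91), a subunit of the nuclease that unhooks crosslinks. Exons of *POLR1G* on the other strand cover 28.6% of the exon bases of *ERCC1*. *CENPS*, with at most 2 counts in a library, could not be tested. Exons of 2 other genes, mainly *CENPS-CORT* on the same strand, cover 64.7% of its exon bases, so its level is uncertain.

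In non-homologous end joining, the neighboring pathway that seals ends without a template, 4 of 9 tested genes were lower and 2 were higher (median log2 fold change -0.172), against 25.3% lower and 24.2% higher among all genes. Without DMSO replicate B the median was -0.015. The lower genes were *PAXX* (-0.99), *XRCC5* (-0.92), *PRKDC* (-0.85) and *XRCC6* (-0.64), and the higher ones were *POLL* (1.08) and *LIG4* (0.44). *XRCC5*, *XRCC6* and *PRKDC* encode the Ku proteins and the kinase that hold the ends, and *LIG4* encodes the ligase. *NHEJ1*, with at most 8 counts in a library, could not be tested. Exons of another gene on the same strand cover 65.4% of its exon bases, so its level is uncertain. The difference between these lists and the 45 genes was not tested.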

How the data were processed

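RNA from 3 DMSO and 3 TH588 cultures, described as biological triplicates, was made into libraries with a TruSeq RNA kit that does not keep the strand. The authors aligned reads to GRCh38 with TopHat, counted them per gene with featureCounts 1.4.6 from Subread and deposited raw counts for 58336 genes, with each gene's length in bases as a further deposited column. UCSC gene models are named in the methods, but the deposited table carries Ensembl identifiers, of which 57754 were matched to a symbol. How reads in overlapping genes were counted is not given in the sources used here. Coordinates of genes are the outermost exon positions in the deposited table, on GRCh38. All 45 genes overlapped the same identifier in GENCODE 44.

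Counts were compared with edgeR 4.0.16 in R 4.3.3 (TMM, default filter on low counts, quasi-likelihood test), with Benjamini-Hochberg adjustment over all 15844 genes tested and a threshold of 0.05. All 6 libraries entered the fit, without covariates. Total counts were 83144642, 86293659 and 98176722 (DMSO A, B and C) and 28537837, 99074175 and 77634048 (TH588 A, B and C). A count of 0 allows up to 3 counts, which is 0.0276 to 0.112 CPM and covers counting error only. Levels between genes were compared per kilobase of the deposited length. The script was tested on simulated counts.

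The members, role groups, pairs and other lists were chosen with earlier results of these data known. Values in every library are given, in each role, for the largest fall and rise past the threshold and the highest level per length, for genes that did not pass the threshold, for partner pairs, and for members that the study probed by qRT-PCR. Of the other pathway genes, the 3 largest falls and 3 largest rises are named, and 1 gene is not reported here. Whether replicate letters pair the libraries was checked by correlating each library's deviation from its group mean with that of the same letter in the other group (r = -0.071, -0.083 and 0.001), and they did not. Replicates of a group differed by more than sampling noise, so each library counted as 1 replicate.

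Alternatives were DESeq2 size factors, library size only, the 10 most abundant genes removed, DESeq2 1.42.0, limma-voom (limma 3.58.1), a filter of at least 10 counts in every library or no filter, omission of each library, the replicate letter as a block, a gene length trend removed with and without that block, an adjusted p under 0.01, 0.5 added to counts in partner ratios, and the 250 bases before the start for promoters.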

Additional observations from a re-analysis of the deposited data

How the results depend on the processing

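Of the 45 genes, 35 kept their side of the threshold and direction under all 17 alternatives fitted across the table, 31 of them as lower. Genes lower numbered 32 with library size only, 33 at an adjusted p under 0.01 and 34 to 36 with a library left out. The 1 higher gene, *RAD51B*, was called under all but 3 alternatives: the number higher, overall and among recombination mediators, was 0 at an adjusted p under 0.01 and ranged from 0 to 1 with a library left out.

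With library size only, all genes had a median of 0.126 in place of 0.019, and the share of called genes that were higher went from 48.9% to 60.4%. Medians then moved to -0.81 for the 45 genes, -0.763 for the core complex, -1.03 for BRCA proteins, -0.509 for recombination mediators, -0.704 for end recognition, -0.72 for theta joining and helicases, -0.65 for nucleases, -0.287 for other pathway genes and -1.214 for proliferation markers. With the length trend removed, they were -0.56 for recombination mediators, -0.763 for end recognition and -0.46 for other pathway genes. With the length trend removed and the replicate block, they were -0.966 for the 45 genes, -0.554 for recombination mediators and -0.758 for end recognition. With at least 10 counts in every library, which drops *RMI2*, the RecQ median was -0.893.

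With a library left out, medians ranged from -0.996 to -0.875 for the 45 genes, from -0.712 to -0.607 for recombination mediators, from -0.47 to -0.325 for other pathway genes and from -0.23 to -0.015 for end joining genes, the last without DMSO replicate B. RecQ genes lower ranged from 3 to 5, with 3 also at an adjusted p under 0.01. Signs turned for *RAD52*, to 0.075 with library size only and to 0.004, 0.005 and 0.073 without DMSO A, DMSO C and TH588 C (its lowest value with a library left out was -0.097), and for *WRN*, to 0.004 with library size only. None of these passed the threshold. Genes with E2F letters numbered 3 in the 250 bases before the start, since the matches of 4 genes reach past it. The cause of the other shifts was not tested.

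With the replicate block, 36 of the 45 genes were again lower, and 7195 genes were called in all, of which 7129 were also called without it. Same-letter libraries did not deviate together. The shallowest library, TH588 replicate A, had 28537837 counts, where a count of 0 allows up to 0.112 CPM.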
